A study of Mus musculus with 21 samples.

Results

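The regions described here are DNase I hypersensitive sites (DHS) that were called in the innate lymphoid cell precursor (ILCP) and in neither of the progenitors before it, and that carried no peak of the transcription factor TCF1. They were chosen by the peak calls. The DHS lists of 3 successive mouse bone marrow stages were merged wherever peaks shared at least 1 bp on chromosomes 1 to 19 and X. A region was kept if it held an ILCP peak, no peak of the all-lymphoid progenitor (ALP) or the early innate lymphoid progenitor (EILP), and no overlap with a TCF1 peak. This gave 17348 ILCP-only regions without TCF1, out of 102313 merged regions and 71094 regions open in ILCP. They were 24.4% of the ILCP regions (95% Wilson interval 24.1 to 24.7), a share fixed by the rule. Every one of them consisted of a single ILCP peak, and together they covered 2.90 Mb, or 17.8% of the length of all ILCP peaks.

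Innate lymphoid cells are lymphocytes without rearranged antigen receptors that guard barrier tissues. They arise in the bone marrow from a progenitor shared with B and T cells, through intermediates that switch on TCF1, the HMG-box factor encoded by Tcf7, and then commit to innate lymphoid fates. An active promoter or enhancer is cleared of nucleosomes and becomes sensitive to DNase I, so a DHS marks DNA that was accessible in at least some of the cells. In a pool of cells, opening in fewer cells and weaker opening in each cell cannot be told apart.

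DNase-seq was made in 3 libraries per stage from 300 sorted cells each, with 0.3 units of DNase I for 5 minutes. CUT&RUN, where an antibody tethers micrococcal nuclease to the bound DNA, mapped TCF1 in EILP with 6 TCF1 and 4 IgG libraries of 500 cells, both including technical repeats. All cells were sorted from the marrow of C57BL/6 mice. ILCP were sorted as lineage-negative Kit+ 2B4+ cells positive for a4b7, Tcf7, Thy1 and IL-7Ra, and carried the genotype label Tcf7EGFP/+. EILP had the same profile apart from being Thy1-, with no IL-7Ra gate named, and carried the label Tcf7EGFPnull/+. ALP were Lin- Kit+ 2B4+ and a4b7-, with Flt3high and IL-7Ra+, and were labelled Tcf7EGFP/+ like ILCP. The source names and pooled files call the cells WT, and ages are not stated. Against ALP, the ILCP libraries differed by stage under a shared genotype label, whereas against EILP stage and genotype cannot be told apart if the genotype labels hold. Surface and transcription factor markers of the sorted cells could not be checked, because peak lists hold no expression values.

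The deposited lists were each called on the pooled tags of a stage, so values carry no replicate error and intervals cover the counting of regions only. Pooled depth was 12420429 tags in ALP, 11236009 tags in EILP and 12681410 tags in ILCP, or 1.02 times as many in ILCP as in ALP and 1.13 times as many as in EILP. The TCF1 pool held 2418839 tags against 2919489 in its control. That control includes, by library number, 2 CUT&RUN libraries whose titles name TCF1 while their descriptions name the IgG track. How this changed the TCF1 calls was not tested. At this depth a region without a TCF1 peak is one where none was called, and TCF1 in ILCP was not measured here.

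ILCP had more stage-restricted regions than either earlier stage. Without TCF1, 17348 regions were open in ILCP only, against 9768 in EILP only and 11514 in ALP only. These were 24.4% of the ILCP regions, 14.2% of the EILP regions (13.9 to 14.4) and 17.6% of the ALP regions (17.3 to 17.9). The ILCP-only number was 1.78 times the EILP-only number and 1.51 times the ALP-only number. EILP lies between ALP and ILCP in the series, so it can share regions with a stage on either side. With or without TCF1, 9480 regions were open in EILP and ILCP but not ALP. Open in ALP and EILP but not ILCP were 9747, and in ALP and ILCP but not EILP 4180. What part the place of EILP has in its lower number was not tested. List length bore on the ratios. With the 66449 peaks of lowest q-value taken from each list, 14694 ILCP-only, 8721 EILP-only and 12675 ALP-only regions were left, so that the ratio was 1.68 to EILP-only and 1.16 to ALP-only regions.

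**Figure D1:**
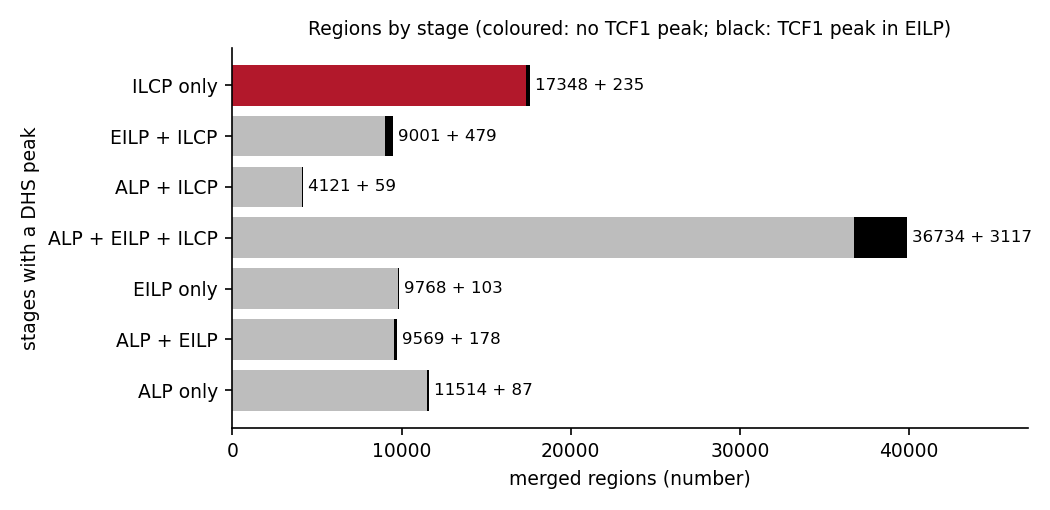
Number of merged regions (horizontal axis) for each combination of stages with a DHS peak (vertical axis). Red or grey bars are regions without a TCF1 peak and black ends are regions with one in EILP; the 17348 ILCP-only regions without TCF1 exceed the 9768 EILP-only and 11514 ALP-only regions, and 36734 regions without TCF1 were open in all 3 stages.

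TCF1 peaks were rarer in regions restricted to 1 stage than over all merged regions, of which 4258 (4.16%) held one. Low shares were not limited to them, since 59 of 4180 regions open in ALP and ILCP but not EILP (1.41%) held a TCF1 peak, against 3117 of 39851 regions open in all 3 stages (7.82%). Of the 17583 ILCP-only regions, 235 (1.34%, 1.18 to 1.52) held a TCF1 peak of EILP, against 103 of 9871 EILP-only regions (1.04%, 0.861 to 1.26) and 87 of 11601 ALP-only regions (0.750%, 0.608 to 0.924). The ILCP-only interval lay above the ALP-only interval and overlapped the EILP-only interval. Setting aside the TCF1-occupied sites therefore removed few ILCP-only regions. The 235 regions left out had a median ILCP height of 12 tags and a median length of 188 bp, against 9 tags and 151 bp in the 17348 without TCF1. Their median local background was also higher, at 1.21 tags against 0.790. Median fold enrichment over that background was close, at 5.41 against 5.23.

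The regions were mostly weak and narrow peaks. Strength is given as the authors' fold enrichment, the height of the tag pileup at the summit over the local background with 1 added to both. ILCP-only regions had a median fold enrichment of 5.23 (quartiles 4.52 and 6.11, lowest 2.40, highest 16.2). ILCP peaks in regions without TCF1 that were also open at ALP or EILP had a median of 7.75. Median summit heights were 9 and 15 tags and median lengths 151 and 208 bp, in the same order. Since the peak calls chose the regions, this contrast is a description only.

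The summit heights place many of these regions close to the calling limit. The lowest height in each DHS list was 5 tags, and 224 ILCP-only regions stood exactly there. A further count shows that 26.7% had 7 tags or fewer and 57.1% had 9 or fewer, while 92.5% had 15 or fewer. A height of 5 tags in ILCP corresponds to 4.43 tags at the depth of EILP and to 4.90 at the depth of ALP. At the other end, 373 ILCP-only regions (2.15%, 1.94 to 2.38) reached 20 tags, against 34.5% of the ILCP peaks in regions open earlier. Only 12 (0.0692%) reached 30 tags, against 6959 (13.8%) of the peaks open earlier. Regions restricted to the other stages were of similar strength in their own lists, with median folds of 5.00 for EILP-only and 5.08 for ALP-only regions and median heights of 8 and 9 tags.

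Peak strength followed the number of stages in which a region was open. In the ILCP list the median fold was 5.23 for ILCP-only regions and 5.62 for the 4136 peaks in regions open at ALP and ILCP but not EILP. It was 6.50 for the 9031 peaks shared with EILP alone and 8.51 for the 37406 peaks in regions open at all 3 stages. ILCP peaks shared with EILP alone were thus stronger in the median than those shared with ALP alone. The EILP peaks of those EILP and ILCP regions had a median fold of 5.70 in their own list, against 5.00 for EILP-only regions.

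Ranking all ILCP regions by fold enrichment gave the same picture as a share. In the weakest decile 56.1% of ILCP regions (54.9 to 57.2) were ILCP-only without TCF1, and in the fifth decile 24.3%. In the strongest decile the share was 0.394% (0.273 to 0.569), or 28 of 7110 regions. The share fell at each step from the weakest to the strongest decile. A region with several ILCP peaks was ranked by the highest fold among them, whereas each ILCP-only region had a single peak. Since the peak calls also define the class, this fall is a description only.

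**Figure D2:**
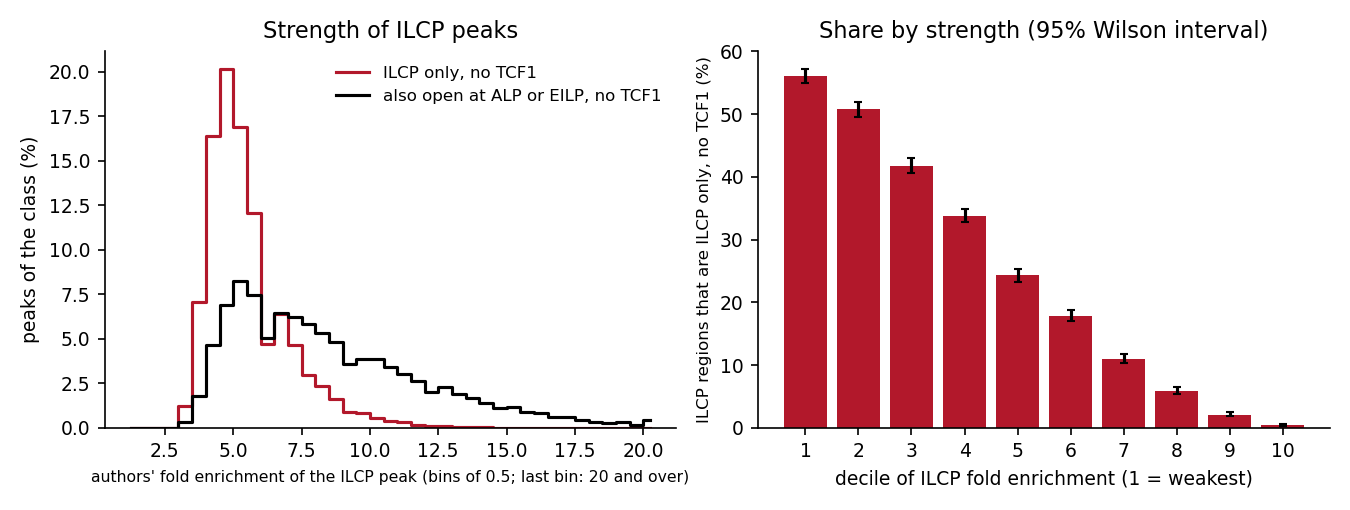
Left, percentage of peaks (vertical axis) by fold enrichment in bins of 0.5 (horizontal axis) for ILCP-only regions (red) and for ILCP peaks in regions also open earlier (black), both without TCF1, with medians of 5.23 and 7.75. Right, percentage of ILCP regions that were ILCP-only without TCF1 in each decile of fold enrichment, with 95% Wilson intervals, falling to 0.394% in the strongest decile, against 56.1% in the weakest.

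Regions just inside and just outside the rule had similar medians. Fewer than 10 bases separated 58 ILCP-only regions from an ALP or EILP peak, with a median fold of 4.76 and a median height of 8 tags. Overlaps of 1 to 10 bp with such a peak excluded 95 ILCP peaks, with a median fold of 4.66 and a median height of 8 tags. The 5 named examples next to an ALP or EILP peak touched it without sharing a base. The strongest of them, chr15:84814353-84814567 on mm9, was 215 bp long with 18 tags and a fold of 6.86, beside a peak of EILP. The second, chr7:87311281-87311656, was 376 bp long with 10 tags and a fold of 5.88, also beside an EILP peak. The other 3, on chromosomes 10, 16 and 17, had folds of 4.40 to 5.26. At the calling threshold, 290 ILCP-only regions had a −log10 q under 2, with a median height of 5 tags.

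The 10 strongest ILCP-only regions lay 2870 to 62503 bp from a DHS of the earlier stages. The median over all ILCP-only regions was 4801.5 bp. The 10 with the highest fold enrichment lay on 8 chromosomes, and their folds ran from 14.3 to 16.2 with heights of 23 to 38 tags. The first was chr11:57580341-57580546, 206 bp long with 28 tags and a fold of 16.2. Its nearest ALP or EILP peak lay 11399 bp away and belonged to a region open in all 3 stages. The second, chr4:9959266-9959711, was the tallest of the 17348 at 38 tags, with a fold of 16.0 and a length of 446 bp. An ALP peak lay 2870 bp from it, in a region open in ALP and EILP but not in ILCP, while the nearest region open in all 3 stages was 156988 bp away.

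Further positions illustrate the range of surroundings. The third-ranked region, chr4:44284040-44284346, had 29 tags and a fold of 15.8, and lay 10563 bp from an EILP peak. The region chr14:34508682-34508863, ranked 9, had 23 tags and a fold of 14.3 and was the most isolated of the 10. Its nearest ALP or EILP peak was 62503 bp away, its nearest region open in all 3 stages 243546 bp away, and its closest neighbour of any stage was another ILCP-only region at 55913 bp. The region chr4:133992609-133992853, ranked 10, lay 10174 bp from a TCF1 peak, the shortest such distance among the 10.

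The remaining 5 of the strongest regions were chr7:28526005-28526269, chr15:7937430-7937648, chr12:101466720-101466977, chr9:26942095-26942270 and chr2:5627726-5628045, with folds of 14.7 to 15.5. Their nearest ALP or EILP peaks lay between 3032 and 9101 bp away. Over all 10, 6 had an ALP or EILP peak within 10 kb and 0 within 1 kb, against 68.8% and 23.3% of all ILCP-only regions. A region open in all 3 stages lay within 10 kb of 2, against 46.2% of all ILCP-only regions. A TCF1 peak lay that close to 0 of them, against 11.2%. With 10 regions picked by strength, these counts are examples only.

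ILCP-only regions lay farther from chromatin open at other stages than regions restricted to the earlier stages did. The rule used overlap at 1 bp, which larger distances do not enter. The median distance to a DHS of the other 2 stages was 4801.5 bp for ILCP-only regions, 3128.5 bp for EILP-only and 3238 bp for ALP-only regions. Within 10 kb of such a DHS lay 68.8% of ILCP-only, 79.1% of EILP-only and 76.5% of ALP-only regions. The ILCP-only share was lower by 10.3 percentage points than the EILP-only share (difference −10.3, 95% Newcombe interval −11.3 to −9.20). Against ALP-only regions the difference was −7.65 points (−8.68 to −6.61). The lists that form the target differ between these comparisons, because each class was measured against the other 2 stages. ILCP had the longest list, with 71916 peaks against 70040 in EILP and 66449 in ALP. ILCP-only regions thus had the smallest target, which goes the same way as these differences. How much it adds to them was not tested. What part the place of EILP between ALP and ILCP has in the difference to EILP-only regions was not tested either.

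With a target common to all classes the differences had the same sign. They were smaller for the shares within 10 kb and larger for the median distances. The median distance to the nearest region open in all 3 stages was 11445 bp for ILCP-only, 8879 bp for EILP-only and 9385 bp for ALP-only regions. Within 10 kb lay 46.2% of ILCP-only regions (45.4 to 46.9), 53.4% of EILP-only regions and 51.6% of ALP-only regions. The differences were −7.24 points against EILP-only (−8.47 to −6.00) and −5.45 points against ALP-only regions (−6.62 to −4.27). Few regions of any class were remote. More than 100 kb from a DHS of the other 2 stages lay 381 ILCP-only regions (2.20%, 1.99 to 2.43), 106 EILP-only regions (1.09%, 0.898 to 1.31) and 222 ALP-only regions (1.93%, 1.69 to 2.20). Of these shares, the ILCP-only interval overlapped the ALP-only interval and lay above the EILP-only interval.

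Stronger ILCP-only regions were the more distant ones. By fold enrichment under 5, from 5 to 7.5, from 7.5 to 10, and of 10 or more, the ILCP-only regions numbered 7785, 7753, 1511 and 299. The share within 10 kb of an ALP or EILP peak was 75.2%, 64.7%, 61.9% and 46.8% (41.2 to 52.5) in these tiers. For the same tiers it was 81.8%, 76.8%, 67.4% and 71.0% (53.4 to 83.9, 31 regions) of EILP-only regions, and 79.7%, 74.3%, 69.0% and 68.9% (61.1 to 75.8) of ALP-only regions. A fall from the weakest tier over the middle tiers was thus seen in each class. The intervals of ILCP-only and ALP-only regions did not overlap in any of the 4 tiers. The widest gap was in the strongest tier, where 140 of 299 ILCP-only regions, against 22 of 31 EILP-only and 102 of 148 ALP-only regions, had another-stage DHS within 10 kb.

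Distances to regions open in all 3 stages lengthened with strength in the same way. The median was 8765 bp in the weakest tier of ILCP-only regions, 13124 and 15325 bp in the middle tiers and 22308 bp in the strongest. From weakest to strongest tier it was 7273, 10246, 13072 and 18966 bp for EILP-only regions. For ALP-only regions it was 7946, 10214, 13608.5 and 13508.5 bp. The lengthening over the first 3 tiers was thus common to the 3 classes. In the strongest tier 24.7% of ILCP-only regions (20.2 to 29.9) had a region open in all 3 stages within 10 kb, against 32.3% of EILP-only regions (18.6 to 49.9) and 38.5% of ALP-only regions (31.1 to 46.5). Median background of ILCP-only regions, by which fold enrichment divides, was 0.830, 0.750, 0.820 and 0.850 tags from the weakest tier to the strongest. In 33.8% of ILCP-only regions it stood at the lowest value in the list, 0.678 tags, against 31.4% of EILP-only regions at 0.601 and 31.7% of ALP-only regions at 0.664 tags in their own lists. Ranks 4, 7, 9 and 10 of the strongest ILCP-only regions were among those at that floor. What part the background has in the trend with strength was not tested.

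**Figure D3:**
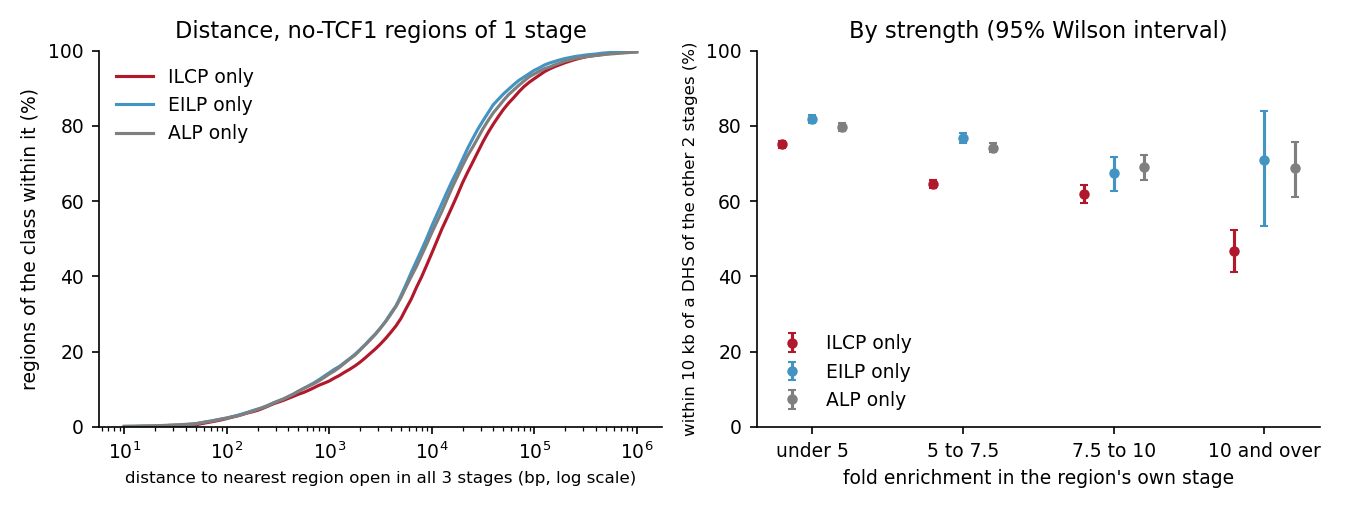
Left, cumulative percentage of regions (vertical axis) by distance to the nearest region open in all 3 stages (bp, log scale) for ILCP-only, EILP-only and ALP-only regions without TCF1; 46.2%, 53.4% and 51.6% lay within 10 kb. Right, percentage within 10 kb of a DHS of the other 2 stages by fold enrichment, with 95% Wilson intervals; the ILCP-only value was 46.8% at a fold of 10 and over, against 71.0% for EILP-only and 68.9% for ALP-only regions.

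TCF1 peaks lay somewhat farther from ILCP-only regions than from regions restricted to the earlier stages. The median distance to the nearest TCF1 peak was 88618 bp for ILCP-only regions, 75614.5 bp for EILP-only and 78572 bp for ALP-only regions. It was 66725.5 bp for ILCP regions without TCF1 that were also open earlier. Within 10 kb of a TCF1 peak lay 11.2% of ILCP-only regions (10.8 to 11.7), 12.8% of EILP-only and 12.9% of ALP-only regions, and 14.5% of the ILCP regions open earlier. The differences were −1.55 points against EILP-only (−2.37 to −0.745) and −1.62 points against ALP-only regions (−2.39 to −0.849). Within 1 kb the shares were 2.60%, 2.65% and 2.61%, and both difference intervals included 0. Among regions of fold under 5 the shares within 10 kb were 14.2%, 14.1% and 14.8% for ILCP-only, EILP-only and ALP-only regions, so the difference to EILP-only regions had the opposite sign there, at 0.108 points, and its interval included 0. Of the 4258 merged regions with a TCF1 peak, 3117 were open in all 3 stages, and ILCP-only regions also lay farther from regions open in all 3 stages. What part this has in their distance to TCF1 was not tested.

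The share near TCF1 also fell with strength, being 14.2%, 9.21%, 7.81% and 4.35% (2.56 to 7.30) over the 4 tiers of ILCP-only regions. For EILP-only regions it was 14.1%, 11.5%, 8.89% and 16.1% (7.09 to 32.6, 31 regions), and for ALP-only regions 14.8%, 11.5%, 8.70% and 8.78% (5.21 to 14.4). The fall over the first 3 tiers was thus common to the 3 classes. The 5 ILCP-only regions closest to a TCF1 peak lay 0 to 3 bp from it. Their folds were low, at 3.89 to 4.71 against a median of 5.23 over all ILCP-only regions. Their heights of 7 to 14 tags lay on both sides of the median of 9. Their local background was 0.700 to 2.69 tags, against a median of 0.790. The closest, chr19:46112024-46112183, touched a TCF1 peak without sharing a base. It had 11 tags and a fold of 3.93, and a region open in all 3 stages lay 1844 bp from it. The next was chr3:51728530-51728666, which lay 1 bp from a TCF1 peak with 7 tags and a fold of 4.71. The other 3 were on chromosomes 4, 11 and 15, each with an ALP or EILP peak at 226 to 456 bp.

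Neighbouring regions tended to share the ILCP-only state. The nearest region of any kind was itself ILCP-only for 20.8% of the ILCP-only regions without TCF1 (20.2 to 21.4). This compares with 17.1% of EILP-only and 15.9% of ALP-only regions, and with 17.2% of all merged regions being ILCP-only. The differences were 3.73 points against EILP-only (2.76 to 4.68) and 4.88 points against ALP-only regions (3.97 to 5.77). Relative to the abundance of each class, the share with a neighbour of the same class was 1.21 times as high for ILCP-only, 1.06 times for EILP-only and 1.19 times for ALP-only regions. On that scale the ILCP-only and ALP-only values were close. A region open in all 3 stages was the commonest neighbour of ILCP-only regions, at 35.8%. A region of ALP only was next to 10.7% and one of EILP only to 9.67%.

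Runs of ILCP-only regions were found where the regions were joined across gaps of at most 12500 bp. There were 468 clusters of 3 or more, holding 1517 regions or 8.74% of all ILCP-only regions. EILP-only regions gave 137 clusters with 4.60% and ALP-only regions 213 clusters with 5.90%, both from classes with fewer regions to join. The largest EILP-only cluster held 8 regions, the largest ILCP-only cluster 7 and the largest ALP-only cluster 5. In 183 of the 468 ILCP-only clusters (39.1%, 34.8 to 43.6) no ALP or EILP peak lay between the outermost regions. The same held for other-stage peaks in 28.5% of EILP-only (21.6 to 36.5) and 33.3% of ALP-only clusters (27.3 to 39.9), and these intervals overlapped. Most ILCP-only regions, 11875 or 68.5%, had no other of their kind within 12500 bp.

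The ILCP-only cluster with the most regions spanned 27.4 kb at chr11:98331500-98358938 and held 7. Their heights along the chromosome were 10, 11, 13, 27, 13, 7 and 8 tags, and their folds were 5.16, 3.44, 4.13, 8.62, 8.09, 4.57 and 5.08. The fourth, chr11:98341398-98341694, was the strongest, and the fifth, chr11:98348952-98349317, was the longest at 366 bp. No ALP or EILP peak lay within the cluster. On the left an EILP peak stood 0.171 kb from its edge and an ALP peak 12.1 kb, whereas on the right both lists were empty for more than 53 kb, with the next EILP peak at 53.3 kb and the next ALP peak at 53.2 kb. The single TCF1 peak inside the cluster lay 1307 bp from the nearest ILCP-only region and had 3 tags.

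**Figure D4:**
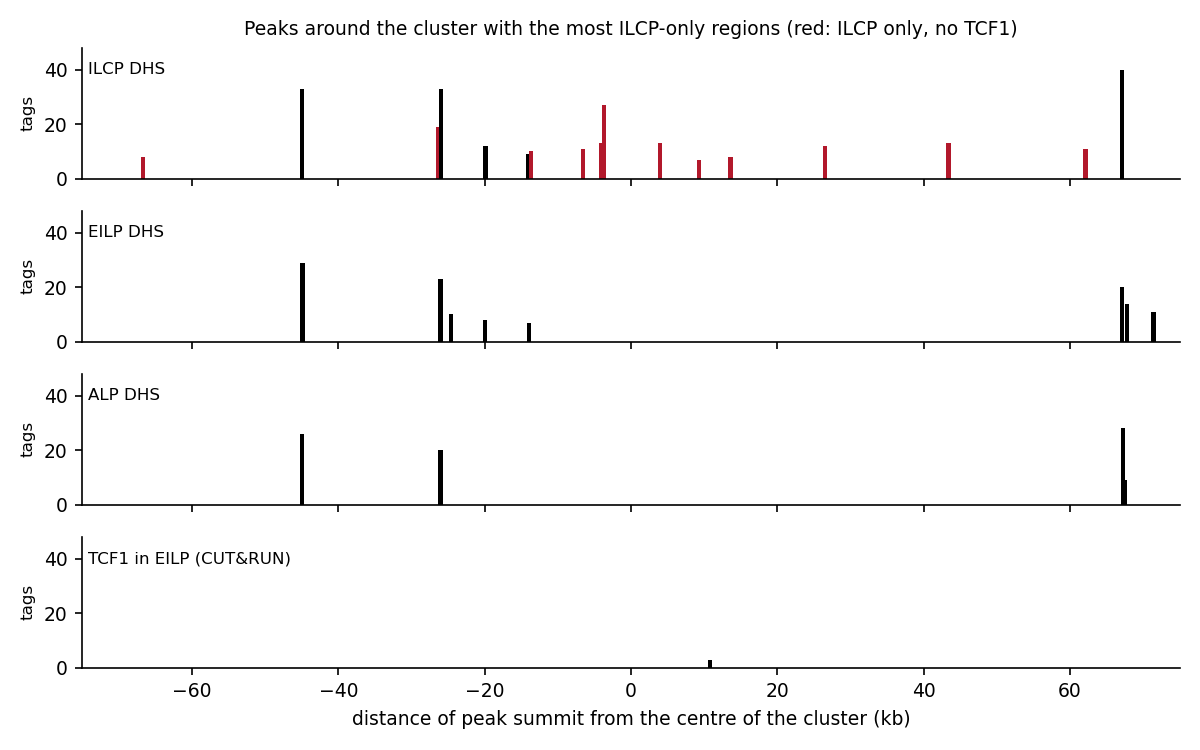
Summit heights in tags (vertical axes) of the ILCP, EILP and ALP DHS and of TCF1 peaks by distance in kb from the centre of the cluster with the most ILCP-only regions; heights are not scaled for depth. Red bars are ILCP-only regions without TCF1, 12 of them in the 75 kb to either side, and no EILP or ALP summit lies between −14.0 and 67.1 kb.

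The next 4 clusters held 6 regions each. The cluster at chr5:111664779-111690460 spanned 25.7 kb with folds of 4.23 to 10.1 and heights of 8 to 28 tags, and 2 EILP peaks and 0 ALP peaks lay between its regions. The cluster at chr6:122220228-122254587 spanned 34.4 kb with folds up to 9.33 and held 2 EILP and 2 ALP peaks. The cluster at chr12:106077346-106102889 had 0 EILP and 2 ALP peaks and folds of 4.71 to 7.44. The cluster at chr2:103810541-103823374 was the tightest at 12.8 kb, with heights of 7 to 13 tags, 2 EILP peaks and 1 ALP peak. A further cluster of 6, at chr4:57292260-57314532, tied with these and ranked below them by its highest fold.

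At the megabase scale the regions were spread widely. Of 2345 windows of 1 Mb with any region, 2110 held an ILCP-only region without TCF1, with a median of 6, and 74 held 20 or more. The most, 35, lay in the window chr17:27000001-28000000, where they were 31.5% of 111 ILCP regions (23.6 to 40.7). The window chr9:118000001-119000000 held 30 of 72, or 41.7% (31.0 to 53.2), against the 24.4% over all ILCP regions. The windows chr8:122000001-123000000, chr11:98000001-99000000 and chr9:57000001-58000000 held 29 of 110, 28 of 111 and 28 of 103. Of the 5 windows, the interval lay above 24.4% in chr9:118000001-119000000 alone, and it included 24.4% in the other 4, that of chromosome 17 among them. The windows were picked for their number of ILCP-only regions, and the intervals do not allow for that choice. These 5 windows are therefore examples only. In the window of chromosome 9 that starts at 57000001, 4 regions were EILP-only and 19 ALP-only beside the 28 ILCP-only ones. Windows with at least 10 ILCP regions numbered 1721, and in 65 of them at least 50% were ILCP-only without TCF1.

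The share of ILCP-only regions was highest where constant DHS were sparse. Windows were grouped by their number of regions open in all 3 stages. In windows with 0 such regions, 65.4% of ILCP regions (59.3 to 71.1) were ILCP-only without TCF1. With 1 to 5, 6 to 10, 11 to 20, over 20 to 40 and over 40 such regions the share was 35.2%, 31.7%, 28.1%, 23.6% and 17.9%. The shares of EILP-only regions among EILP regions ran from 45.0% to 11.3% over the same windows and those of ALP-only regions among ALP regions from 59.9% to 14.1%, so a falling share was common to the 3 classes. Part of the fall is built in, because regions open in all 3 stages are in the denominator of each share.

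The number of ILCP-only over ALP-only regions has no such denominator. It was 1.27 in windows with 0 constant regions, 1.71 with 1 to 5, 1.90 with 6 to 10, 1.62 with 11 to 20, 1.44 with over 20 to 40 and 1.32 with over 40. The ratio of ILCP-only to EILP-only regions was 2.40, 2.15, 2.14, 1.87, 1.69 and 1.58 over the same windows. The ratio to EILP-only regions was thus highest where constant DHS were sparse, and the ratio to ALP-only regions was highest in windows with 6 to 10. No intervals were computed for these ratios. In windows with 0 constant regions the ratios rest on 161 ILCP-only, 127 ALP-only and 67 EILP-only regions.

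**Figure D5:**
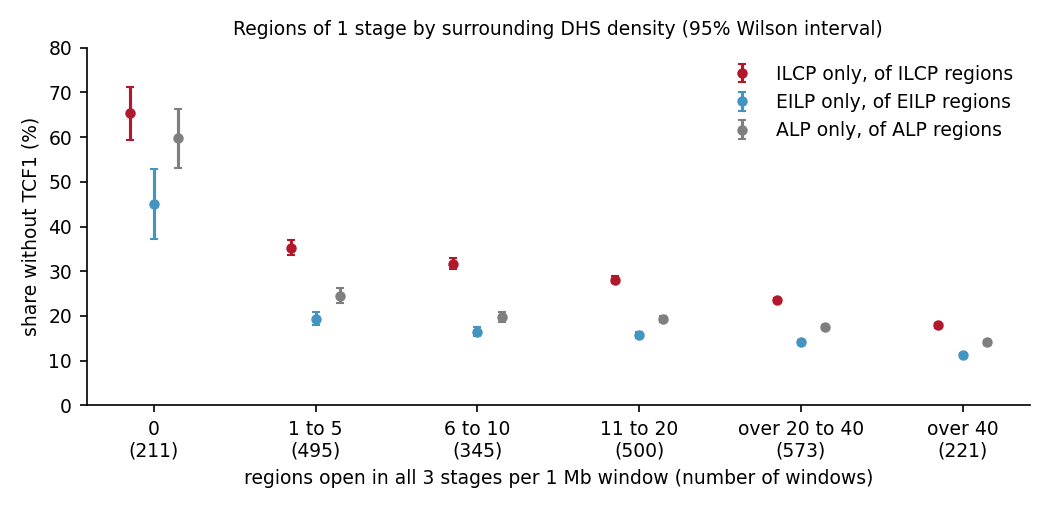
Percentage of a stage's regions that were open in that stage only and held no TCF1 peak (vertical axis), by the number of regions open in all 3 stages in the surrounding 1 Mb window (horizontal axis, number of windows in brackets), with 95% Wilson intervals. The ILCP-only share was 65.4% in windows with 0 such regions and 17.9% in windows with over 40.

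Shares also varied between chromosomes. ILCP-only regions without TCF1 were 28.7% of the ILCP regions of chromosome 18 (26.9 to 30.6), 27.4% of chromosome 14, 27.2% of chromosome X and 27.0% of chromosome 1. The lowest shares were 21.0% on chromosome 11 (19.9 to 22.2), 21.9% on chromosome 19, 22.1% on chromosome 5 and 22.2% on chromosome 7. The interval of chromosome 18 lay above that of chromosome 11. Chromosome 11 also had the lowest ALP-only share, 14.8% of its ALP regions, against 18.0% on chromosome 18, and its EILP-only share was 13.0%, against 15.4% on chromosome 18. On each of the 20 chromosomes the ILCP-only share exceeded both the EILP-only and the ALP-only share.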

How the data were processed

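Peak lists of pooled libraries were used as deposited. The caller was MACS 2.1.1.20160309, per the file headers, with a q-value cutoff of 0.05, 50 bp tags extended to 100 bp and 1 tag kept per position. DNase-seq tags were also shifted by 50 bp and called with no control over a 10 kb background, and TCF1 was called against a pooled control, per the file headers. By library number that control includes the 2 libraries titled TCF1 but described with the IgG track. Positions are on mm9 (submitters' processing notes), and the aligner is not given in the sources used here. The authors' deposited values are the pileup signal at the summit, the fold enrichment, which is a ratio, and the −log10 of the q-value.

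Regions were merged, classified and measured with Python 3.11.15, numpy 2.4.6, pandas 2.3.3 and scipy 1.17.1, and the functions were tested on simulated lists. Local background was worked out from height and fold. Distances are the bases between intervals, 0 where they touch. Peaks outside chromosomes 1 to 19 and X were left out (50 ALP, 48 EILP and 57 ILCP). With 1 list per stage there is no test. Shares have 95% Wilson and differences 95% Newcombe intervals, which treat regions as independent.

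The members and lists were chosen with earlier results of these data known. Named regions are the 10 with the highest fold, the 5 windows and 5 clusters with the most members, and the 5 nearest a TCF1 peak or an ALP or EILP peak. Distances to regions open in all 3 stages, fold tiers, neighbour classes, density bins and the ILCP-only regions with TCF1 were added after seeing the data. Gene names and sequences of the regions were not used here, since no mm9 annotation or genome was at hand.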

Additional observations from a re-analysis of the deposited data

How the results depend on the processing

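Of 89 alternative values, 66 kept their direction and side of 0 or stayed within their margin. Of the others, 13 moved beyond their margin, 8 kept their sign with an interval including 0, and 2 turned their sign. The margin for numbers of regions was a factor of 1.5, which is wide. Among the 66 is the ratio to ALP-only regions, which was 1.16 with lists of equal length, against 1.51. The number of ILCP-only regions was 7598 with ILCP peaks of −log10 q of at least 5 and otherwise 12856 to 18236, against 17348. Requiring no ALP or EILP peak within 500 bp gave a median fold of 5.36, a median length of 154 bp, 62.7% within 10 kb of ALP or EILP DHS, 9.55% within 10 kb of TCF1 and 24.5% with an ILCP-only neighbour. Lists of equal length gave 5.36, 161 bp, 67.6%, 10.8% and 18.6% for these quantities. The 500 bp setting removes the 2853 ILCP-only regions closest to ALP or EILP peaks, so its lower share near such DHS is built in. EILP-only and ALP-only regions close to a peak of another stage were removed likewise. Part of the change in the ILCP-only neighbour share, and in its differences to these classes, is therefore built in too. Clusters of at least 3 numbered 83 at a gap of 5 kb and 1112 at 25 kb.

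Differences within fold tiers are in percentage points and were added after seeing the data. Within 10 kb of TCF1, against ALP-only regions, they were −0.575 under fold 5, −0.886 at 7.5 to 10 and −4.44 at 10 and over, all with intervals including 0. Against EILP-only regions they were 0.108 under fold 5, with the sign turned, and −1.08 at 7.5 to 10. Within 10 kb of a region open in all 3 stages, intervals included 0 at 7.5 to 10 (−4.02 against ALP-only and −3.78 against EILP-only regions) and at 10 and over against EILP-only regions (−7.51). For an ILCP-only neighbour they included 0 at 10 and over (4.81 against ALP-only regions and, with the sign turned, −0.723 against EILP-only regions). The cause of these changes was not tested; the strongest tier holds 299 ILCP-only, 31 EILP-only and 148 ALP-only regions.

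No paired analysis was possible because each list pools its libraries, and for the same reason no library was left out in turn. Alternatives on promoters, GC content, motifs and gene lists were not run. Weak peaks limit the class: 57.1% of ILCP-only regions had 9 tags or fewer.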
